A study of Mus musculus with 8 samples.

Results

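The comparison described here is the effect of lowering Baf60c in C2C12 myotubes, averaged over 2 glucose levels (1 mM and 10 mM). C2C12 is a mouse myoblast line that fuses into multinucleated myotubes in culture. All 4 Baf60c knockdown arrays (labelled SiBc) were set against all 4 control arrays (labelled Scrb), which are all 8 arrays of the series, in a model with glucose as a covariate. Each gene was represented by 1 probe set, the brightest one assigned to that gene alone. The 4 control arrays came from cells that had received a retrovirus with the scrambled control shRNA, 2 kept at 1 mM and 2 at 10 mM glucose for 12 h. The 4 knockdown arrays came from cells that had received a retrovirus with an shRNA against mouse Baf60c, likewise 2 at 1 mM and 2 at 10 mM glucose for 12 h. All cells were transduced as myoblasts and differentiated afterwards, so transduction preceded differentiation, and the parental line was the same in all groups. The series describes the 2 samples of each group as independent biological replicates.

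BAF60c, encoded by Smarcd3, is one of the alternative BAF60 subunits of the BAF (SWI/SNF) complex, which uses ATP to move nucleosomes. In muscle it is known for its association with the myogenic factor MyoD at the control regions of muscle genes. MyoD and myogenin, which bind E-boxes, and MEF2 proteins, which bind an A/T-rich site, together activate the genes of the contractile apparatus as myoblasts become myotubes.

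The arrays gave values on the log2 scale after RMA, a method that corrects background, normalizes the arrays to a common distribution and summarizes probes. Array medians over the 13308 genes tested ran from 5.89 to 6.02. Replicates of a group correlated across genes at r = 0.987 to 0.990, and arrays of different groups at 0.939 to 0.984, where genes are not independent. Principal component 1 (62.8% of the variance) split the arrays by glucose and component 2 (13.5%) by knockdown. Below, a change is the average log2 difference, knockdown minus control, ± its standard error (SE) from limma, with n = 4 arrays on each side. A gene is said to have risen or fallen when its Benjamini-Hochberg adjusted p was under 0.05. Array values are given as log2 expression in the order control 1 mM, knockdown 1 mM, control 10 mM and knockdown 10 mM, 2 replicates each. Since RMA shrinks differences at low intensity, changes of dim genes may be understated.

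The knockdown itself was visible in every array. Smarcd3 was measured only through probe set 17446269, which the annotation assigns to Smarcd3 and to Chpf2, a chondroitin polymerizing factor, so its values belong to both genes. This probe set read 5.62 and 5.4 in control cells against 3.01 and 2.77 in knockdown cells at 1 mM glucose, and 6.27 and 6.09 against 3.90 and 4.49 at 10 mM. All 4 knockdown arrays lay below all 4 control arrays. The average change was -2.30 ± 0.18 (limma, adjusted p = 0.000871), a 4.93-fold decrease.

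Averaged over the glucose levels, knockdown lowered more genes than it raised, and the largest changes were decreases. Of the 13308 genes, 532 (4.0%) changed, 339 (2.55%) lower and 193 (1.45%) higher, while the median change of all genes was -0.01. Changes of at least 2-fold numbered 135, of which 111 were decreases and 24 increases. At least 4-fold changes were seen in 13 genes that fell and in 0 that rose. Of the 532 genes, 47 that fell and 26 that rose had a group mean under 3 and were dim there. The median SE of 0.128 gave an unadjusted 95% interval that reached 0.293 to either side of a change, and a call needed more.

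The 2 glucose levels gave the same direction for all 532 genes, and in 531 of them the knockdown and control arrays did not overlap within either level. The call on the average used these same arrays and favours genes with such agreement, so the agreement is no separate support for the calls. Of all genes 2422 (18.2%) had such separation in 1 direction, 1137 (8.54%) higher and 1285 (9.66%) lower. The genes named below for their large changes were taken only from called genes with such separation. For them, separation within each level describes the choice and is not evidence. Across all 13308 genes the directions at the 2 levels matched in 60.38%, and the 2 changes, which share no arrays, correlated at r = 0.41 as a description across genes. The mean over 4 arrays a side called genes that neither level called by itself. At 1 mM alone 198 genes changed (1.49%), of which 31 rose (0.233%) and 167 fell (1.25%). At 10 mM alone 149 changed (1.12%), of which 57 rose (0.428%) and 92 fell (0.691%), and 329 of the 532 (61.84%) passed the test at neither level. Conversely, 45 of the 198 genes called at 1 mM and 34 of the 149 at 10 mM did not pass on average. The difference of the knockdown effect between the glucose levels passed the threshold in 0 genes by limma (1049 genes, 7.88%, at an unadjusted p under 0.05). Among the 339 genes that fell, the fall was numerically larger at 1 mM in 237, and the median fall was -0.86 at 1 mM and -0.75 at 10 mM. Among the 193 that rose, the rise was numerically larger at 1 mM in 88, with medians of 0.61 and 0.68.

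The number of genes called depended on each array. Without 1 control array at 1 mM, 345 (replicate 1) or 255 (replicate 2) genes passed. Without 1 knockdown array at 1 mM, 326 or 306 passed, and without 1 control array at 10 mM, 315 or 331. Without 1 knockdown array at 10 mM, 250 or 300 passed. Of the 532 genes, 240 to 304 passed in these 8 fits, and 0 changed sign. Where the term for glucose was left out of the model, so that the glucose response entered the error, only 10 genes passed.

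**Figure D1:**
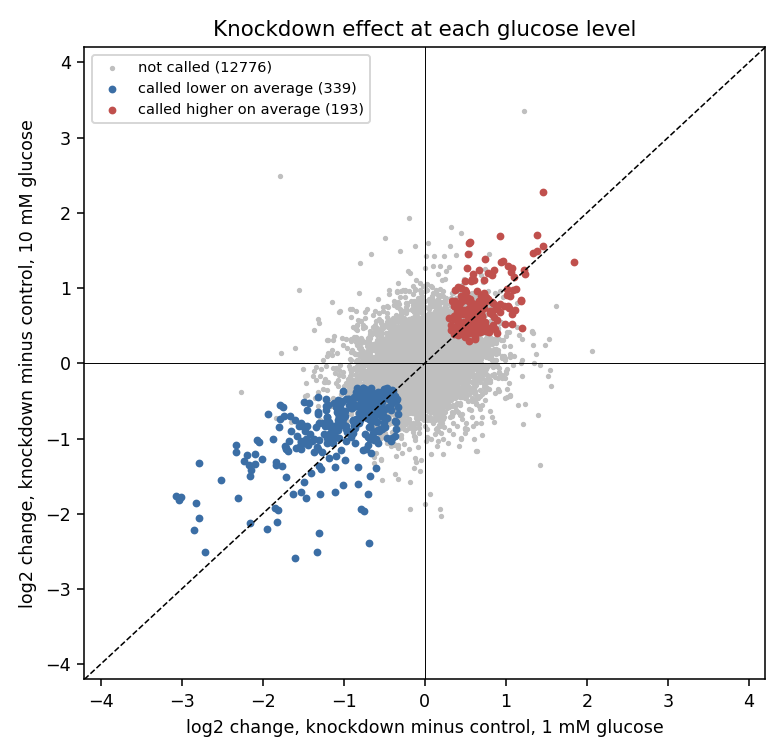
Knockdown effect at 1 mM glucose (horizontal, log2) against that at 10 mM (vertical, log2) for the 13308 genes, with the 339 genes that fell on average in blue, the 193 that rose in red and the others in grey. All coloured points lie in the lower left or upper right quadrant, which a call on the average of the same arrays favours. The dashed line marks equal changes.

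Regulators of myogenesis fell in part. Of 22 myogenic transcription factors tested, 4 fell and 0 rose (18.2%, against 4.0% of all genes), with a list median of -0.12. Mef2c, a MEF2 family activator of muscle structural genes, read 7.62 and 7.88 in control cells against 5.81 and 5.37 in knockdown cells at 1 mM glucose, and 8.63 and 8.72 against 7.26 and 7.39 at 10 mM. The groups did not overlap within either level, although knockdown cells at 10 mM came close to control cells at 1 mM. Mef2c changed by -1.76 ± 0.19 (adjusted p = 0.00292), a 3.38-fold decrease, and its dimmer second probe set by -1.31 ± 0.23 (adjusted p = 0.020).

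Myog encodes myogenin, the E-box factor of terminal differentiation. It read 9.60 and 9.87 in control cells against 8.62 and 8.70 in knockdown cells at 1 mM, and 10.02 and 10.16 against 9.32 and 9.12 at 10 mM. All 4 knockdown arrays lay below all 4 control arrays. Myog changed by -0.97 ± 0.11 (adjusted p = 0.00328), a 1.96-fold decrease. Myod1, which encodes MyoD, read 5.24 and 5.89 against 4.41 and 4.58 at 1 mM, and 7.78 and 7.74 against 7.13 and 6.88 at 10 mM. Its level was higher at 10 mM glucose in both backgrounds, and it was lower in knockdown cells within each level. Myod1 changed by -0.91 ± 0.16 (adjusted p = 0.0175). Its call was lost without replicate 1 or 2 of the knockdown at 1 mM or replicate 2 of the knockdown at 10 mM, with an adjusted p of at most 0.0549. Tead4, a TEA domain factor of muscle genes, was the fourth member that fell (-0.89 ± 0.16, adjusted p = 0.0195), and was called in 3 of the 8 fits with 1 array left out, its adjusted p reaching 0.0631. Without replicate 1 of the knockdown at 1 mM, the list count was 2. Six4, a homeobox factor of the myogenic programme, changed by -0.05 ± 0.15 and did not pass (adjusted p = 0.910). Its sign turned without replicate 1 of the control or replicate 2 of the knockdown at 1 mM.

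Genes of the undifferentiated state passed in both directions. Of 23 myoblast and satellite cell genes tested, 1 rose and 2 fell (13.0%, against 4.0% of all genes), with a median of 0.14. These were Sdc3 (0.60 ± 0.10), a syndecan, and Itga7 (-0.72 ± 0.13) and Spry1 (-0.61 ± 0.11), an integrin chain and an inhibitor of growth factor signalling. They were called in 4, 3 and 3 of the 8 fits with 1 array left out. Of 33 cell cycle genes, 0 rose and 2 fell (6.1%), with a median of -0.04. These were Ccnd3, cyclin D3 (-0.52 ± 0.11), and Cdkn1a, the inhibitor p21 (-0.56 ± 0.10), called in 1 and 3 of those 8 fits.

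Many genes of the contractile apparatus fell. Of 13 myosin heavy and light chain genes tested, 8 fell and 0 rose (61.5%, median -1.42, against 4.0% and -0.01 for all genes). Of 19 troponin, tropomyosin and sarcomeric actin genes, 13 fell and 2 rose (78.9%, median -0.73). Of 44 Z-disc, M-band, titin and assembly genes, 21 fell and 0 rose (47.7%, median -0.66). With 1 array left out, 8 to 9, 10 to 11 and 15 to 19 members of these lists fell.

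Among the myosins, Myh3 encodes the embryonic heavy chain. It read 9.73 and 10.01 in control cells against 7.72 and 7.55 in knockdown cells at 1 mM, and 10.59 and 10.77 against 9.42 and 9.35 at 10 mM. The knockdown arrays were below every control array, and the change was -1.77 ± 0.19 (adjusted p = 0.00292). Myh4, the fast IIb heavy chain, read 3.92 and 4.03 against 2.10 and 1.53 at 1 mM, and 5.92 and 6.98 against 4.29 and 4.36 at 10 mM. Its level was higher at 10 mM glucose, so that knockdown cells at 10 mM lay above control cells at 1 mM, and it was dim in knockdown cells at 1 mM. Within the levels Myh4 was lower by nearly the same amount (-2.16 and -2.13), and on average by -2.14 ± 0.22 (adjusted p = 0.00278). Myl4, an atrial and embryonic light chain, had the smallest error of the named myosins. It read 7.01 and 7.01 against 5.13 and 5.27 at 1 mM, and 7.61 and 7.74 against 5.74 and 5.71 at 10 mM. The 2 sets of arrays were far apart compared with replicate spread, and the change was -1.88 ± 0.09 (adjusted p = 0.000111), a 3.69-fold decrease. The slow chain Myh7 (-1.42 ± 0.14), dim in knockdown cells at 1 mM, and the light chain Myl6b (-1.52 ± 0.12) also fell.

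In the thin filament, Actc1, the cardiac alpha-actin that is expressed in young myotubes, fell by 1.57 ± 0.16 on the log2 scale (adjusted p = 0.00228). The fast troponin C gene Tnnc2 changed by -1.41 ± 0.16, the cardiac and embryonic troponin T gene Tnnt2 by -1.23 ± 0.14, and Lmod2, which encodes the filament nucleator leiomodin, by -1.01 ± 0.10. Acta1, the adult skeletal alpha-actin, named after its value was seen, changed less (-0.64 ± 0.10, adjusted p = 0.0120). The 2 members that rose were Tpm3 (0.64 ± 0.14, adjusted p = 0.0389) and Tpm4 (0.47 ± 0.08, adjusted p = 0.0210), tropomyosins that also serve the non-muscle cytoskeleton. Their rise was not firm. A second Tpm3 probe set fell (-0.78 ± 0.10, adjusted p = 0.00704), and the mean of both gave -0.07. Tpm3 was called in 1 and Tpm4 in 2 of the 8 fits with 1 array left out.

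In the M-band and Z-disc, Myom1, which encodes myomesin, the cross-linker of thick filaments, read 5.98 and 6.22 in control cells against 3.16 and 3.02 in knockdown cells at 1 mM. At 10 mM it read 6.99 and 7.31 against 5.33 and 5.42. All knockdown arrays were below all control arrays, and the gap was numerically wider at 1 mM (-3.0) than at 10 mM (-1.78). Myom1 changed by -2.39 ± 0.24 (adjusted p = 0.00228), a 5.25-fold decrease, and the difference between levels of 1.23 did not pass (adjusted p = 0.389). Actn2, the alpha-actinin that anchors thin filaments at the Z-disc, read 5.0 and 5.53 against 3.35 and 3.29, and 7.32 and 6.99 against 4.76 and 5.17. Knockdown arrays at 10 mM overlapped control arrays at 1 mM, but the groups were apart within each level, and the change was -2.07 ± 0.16 (adjusted p = 0.000867). Myoz2, a calcineurin-binding Z-disc protein (-1.43 ± 0.11), and Smyd1, a methyltransferase of sarcomere assembly (-1.09 ± 0.12), fell too. Hspb7, a small heat shock protein of muscle, read 7.05 and 7.16 against 4.23 and 3.82 at 1 mM, and 7.21 and 7.42 against 5.85 and 5.24 at 10 mM. Control cells were similar at both levels and knockdown cells were lower, by -3.07 and -1.77, which gave -2.42 ± 0.27 on average (adjusted p = 0.00347).

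**Figure D2:**
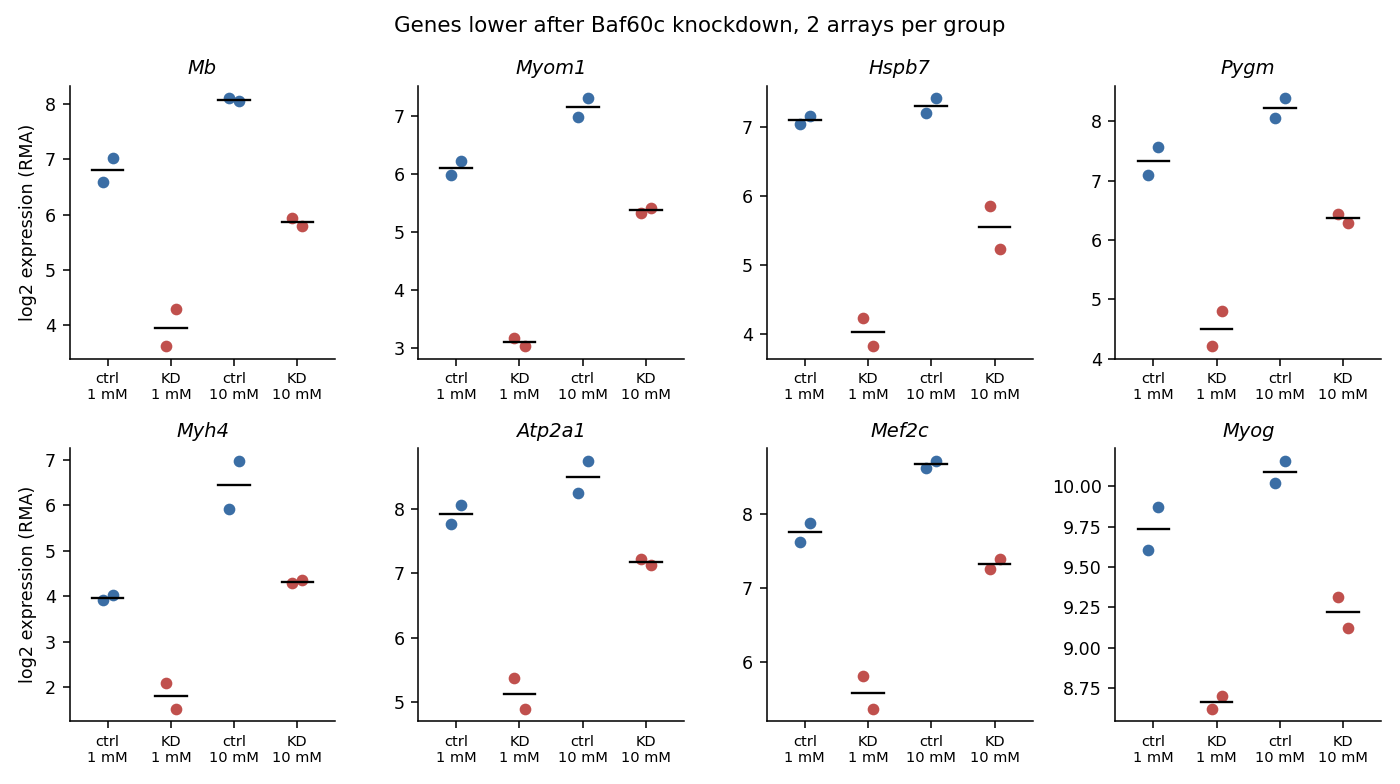
Log2 expression of 8 genes on the 8 arrays, with control cells (ctrl) in blue, knockdown cells (KD) in red and the mean of the 2 replicates as a bar. In each panel both knockdown arrays lie below both control arrays of the same glucose level, which was a condition for naming most of these genes. In most panels the level was higher at 10 mM glucose in both backgrounds. Each panel has its own vertical axis, which does not start at 0.

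Excitation-contraction coupling genes, which link membrane depolarization to calcium release, fell in large part. Of 29 tested, 18 fell and 0 rose (62.1%, against 4.0% of all genes, median -0.88), and 13 to 16 fell with 1 array left out. Atp2a1, the SERCA1 pump that returns calcium to the sarcoplasmic reticulum, read 7.77 and 8.07 in control cells against 5.37 and 4.89 in knockdown cells at 1 mM, and 8.24 and 8.75 against 7.23 and 7.12 at 10 mM. All knockdown arrays were lower than all control arrays, and the change was -2.05 ± 0.30 (adjusted p = 0.00916). At 1 mM Atp2a1 fell by 2.79 on the log2 scale, whereas the -1.32 at 10 mM did not pass by itself. The difference of 1.47 between the levels did not pass either (adjusted p = 0.417). Trdn, the triadin of the release complex (-1.78 ± 0.19), Cacna1s, the voltage sensor (-1.56 ± 0.13), Ryr1, the release channel (-1.32 ± 0.12), and Casq2, a calsequestrin that buffers stored calcium (-0.95 ± 0.11), fell. A dim second probe set of Ryr1 changed by -0.32 ± 0.14 and did not pass. Of 8 ion channels of muscle excitability tested, 0 passed on average by limma (2 at an unadjusted p under 0.05, median -0.23). With the trend and robust options 1 passed on average after adjustment. Without these options 4.0% of all genes passed, and 18.9% had an unadjusted p under 0.05 by limma. Kcnn3, a calcium-activated potassium channel, changed by -1.32 ± 0.35 on average (adjusted p = 0.0837). It fell at 1 mM by itself (-2.27, adjusted p = 0.00329) and did not pass at 10 mM (-0.38, adjusted p = 0.449). The difference of 1.89 between the levels did not pass after adjustment (adjusted p = 0.235).

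At the muscle membrane and the nerve contact, 6 of 14 acetylcholine receptor and neuromuscular junction genes fell and 0 rose. This was 42.9%, against 4.0% of all genes, and the list median was -0.36. Chrnb1, the beta subunit of the receptor, read 8.72 and 8.96 against 7.69 and 7.68 at 1 mM, and 8.33 and 8.64 against 7.49 and 7.5 at 10 mM. The arrays differed more by knockdown than by glucose, with all knockdown arrays below all control arrays, and the change was -1.07 ± 0.11 (adjusted p = 0.00228). Its partner subunit Chrnd (-0.68 ± 0.10), Dok7, an adaptor of the receptor-clustering kinase MuSK (-0.96 ± 0.13), and the neuregulin receptor Erbb3 (-1.16 ± 0.16) fell as well. The alpha subunit Chrna1, named after its value was seen, changed by -0.34 ± 0.09 and did not pass (adjusted p = 0.0693).

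Of 17 genes of the dystrophin-glycoprotein complex, 4 fell and 0 rose (23.5%, against 4.0% of all genes, median -0.20). Sgca, the alpha-sarcoglycan of striated muscle, read 6.84 and 6.85 against 4.62 and 4.75, and 7.76 and 7.64 against 6.24 and 6.17. No knockdown array reached a control array, and the change was -1.83 ± 0.14 (adjusted p = 0.000867). Dmd, dystrophin (-0.93 ± 0.13), and Lama2, the laminin chain it is linked to (-1.05 ± 0.10), fell.

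Of 25 myoblast fusion and membrane repair genes, 5 fell and 0 rose (20.0%, against 4.0% of all genes, median -0.18). Mymk encodes myomaker, the membrane protein required for fusion. It read 10.57 and 10.80 in control cells against 9.34 and 9.52 in knockdown cells at 1 mM, and 11.35 and 11.46 against 10.55 and 10.67 at 10 mM. Knockdown cells at 10 mM were near control cells at 1 mM, and within each level the groups were apart. Mymk changed by -1.02 ± 0.13 (adjusted p = 0.00495). Tmem182, a membrane protein of muscle (-1.42 ± 0.14), Trim72, a membrane repair ligase (-1.32 ± 0.20), and Dysf, dysferlin (-0.74 ± 0.12), fell too, while a dim second Dysf probe set did not pass (-0.12 ± 0.25).

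Promoter sequences are shown for 5 genes that fell, because they hold the letters bound by the factors described above. Promoter windows were taken from RefSeq on GRCm38.p6 as the 250 bases before the annotated start. Of the 13308 genes, 10345 had a window and 8335 had exactly 1, among them 196 that fell and 113 that rose. Capitals mark the E-box CAGCTG or CACCTG, the letters TATAAA, and the MEF2 site, searched on both strands. The windows are chr3:123034988-123035237 on the minus strand for Myoz2, chr11:67237562-67237811 on the plus strand for Myh4 and chr3:102086165-102086414 on the plus strand for Casq2. Those for Pygm and Atp2a1 are chr19:6384158-6384407 on the plus strand and chr7:126463074-126463323 on the minus strand.
Myoz2: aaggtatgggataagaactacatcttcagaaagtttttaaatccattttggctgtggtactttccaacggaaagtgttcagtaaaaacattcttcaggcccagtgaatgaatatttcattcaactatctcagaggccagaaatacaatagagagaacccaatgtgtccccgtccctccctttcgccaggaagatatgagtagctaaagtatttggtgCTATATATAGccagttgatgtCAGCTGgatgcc
Myh4: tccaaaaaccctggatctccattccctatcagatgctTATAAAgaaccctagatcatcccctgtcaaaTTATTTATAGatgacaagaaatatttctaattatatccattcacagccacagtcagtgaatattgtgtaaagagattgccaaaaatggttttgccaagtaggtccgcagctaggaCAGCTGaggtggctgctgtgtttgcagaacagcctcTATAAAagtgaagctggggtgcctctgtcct
Casq2: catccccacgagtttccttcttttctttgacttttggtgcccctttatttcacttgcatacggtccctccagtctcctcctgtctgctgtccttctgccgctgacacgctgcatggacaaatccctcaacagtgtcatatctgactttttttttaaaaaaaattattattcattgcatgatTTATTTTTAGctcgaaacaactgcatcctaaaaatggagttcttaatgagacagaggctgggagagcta
Pygm: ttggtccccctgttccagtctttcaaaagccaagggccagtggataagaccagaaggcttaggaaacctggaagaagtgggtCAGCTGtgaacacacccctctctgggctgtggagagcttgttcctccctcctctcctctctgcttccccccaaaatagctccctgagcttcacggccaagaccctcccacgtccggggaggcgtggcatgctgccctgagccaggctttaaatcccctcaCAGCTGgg
Atp2a1: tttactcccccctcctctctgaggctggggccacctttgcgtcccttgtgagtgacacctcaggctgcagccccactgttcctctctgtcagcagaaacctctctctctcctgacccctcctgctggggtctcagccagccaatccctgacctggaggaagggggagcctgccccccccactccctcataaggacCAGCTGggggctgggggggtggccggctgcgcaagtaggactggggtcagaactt

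The first 3 hold the MEF2 letters. In Myoz2 and Myh4 a CAGCTG follows nearer to the start, and in Myh4 the MEF2 letters overlap a TATAAA. Pygm holds CAGCTG at 2 places and Atp2a1 at 1. Among the 196 promoters of genes that fell, 19 (9.7%) held the MEF2 letters, against 139 of all 8335 (1.7%) and 2 of the 113 that rose (1.8%). Since MEF2 and TATA letters can overlap, matches clear of a TATAAA were counted too, and were found in 5.61% of the falling genes and in 1.13% of all. Besides Myoz2, Myh4 and Casq2, the 19 included Myh1, Myh8, Klhl41, Myom3 and Ttn, which were picked out here after the search. CAGCTG was held by 21.9% of the promoters of falling genes, 17.7% of those of rising genes and 12.0% of all. For CACCTG these shares were 20.4%, 16.8% and 15.0%, for TATAAA 13.8%, 10.6% and 7.2%, and for TCAGGTT, the first letters of the MEF3 site, 3.1%, 3.5% and 2.9%. These shares are descriptions without a test. A match does not show that a factor was bound, and muscle genes were many among those that fell.

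**Figure D3:**
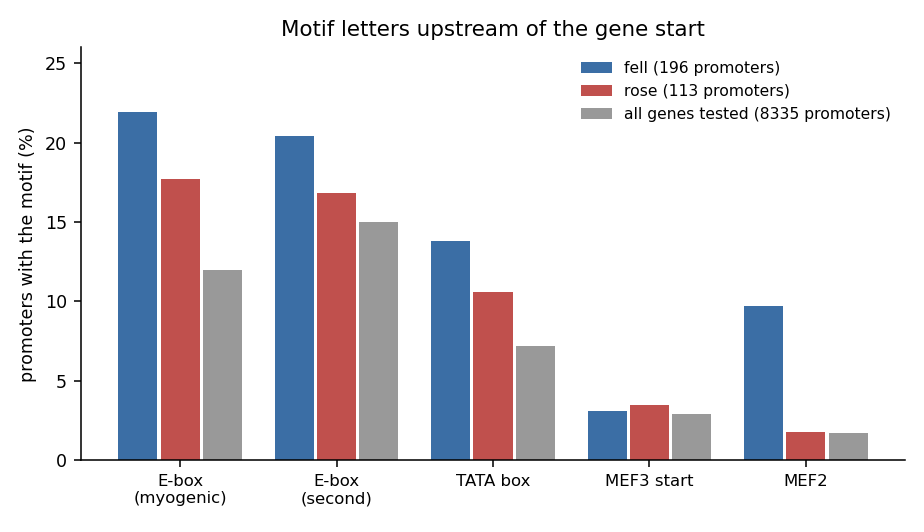
Share of promoters (vertical, percent) with each set of letters in the 250 bases before the start, for 196 genes that fell (blue), 113 that rose (red) and all 8335 tested genes with 1 promoter (grey). The myogenic E-box is CAGCTG and the second E-box CACCTG, and falling genes stand above all genes at CAGCTG (21.9% and 12.0%) and at MEF2 (9.7% and 1.7%).

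Genes of oxygen storage, ATP buffering, glycogen breakdown and fatty acid uptake were among those that fell. Mb, myoglobin, the oxygen store of muscle, read 6.6 and 7.04 in control cells against 3.62 and 4.30 in knockdown cells at 1 mM, and 8.11 and 8.05 against 5.93 and 5.80 at 10 mM. The 4 knockdown arrays lay below the 4 control arrays, and Mb changed by -2.53 ± 0.20 (adjusted p = 0.000867), a 5.78-fold decrease. Ckm, the muscle creatine kinase that rebuilds ATP, read 5.62 and 5.47 against 3.82 and 4.02, and 6.71 and 6.81 against 4.95 and 5.10. Its fall was of like size at both levels (-1.63 and -1.73), and the average was -1.68 ± 0.10 (adjusted p = 0.000229), although a second probe set at a lower level stayed near 0 (-0.08 ± 0.09). Of the 10 energy buffer genes tested, 3 fell and 0 rose (median -0.26), while 4.0% of all genes were called. The third gene that fell, Adssl1, an adenylosuccinate synthase, lost its call in all 8 fits with 1 array left out.

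In glycogen metabolism, Pygm, the muscle glycogen phosphorylase, read 7.10 and 7.57 against 4.21 and 4.81 at 1 mM, and 8.06 and 8.39 against 6.44 and 6.29 at 10 mM. All knockdown arrays were lower than all control arrays, and Pygm changed by -2.34 ± 0.23 (adjusted p = 0.00228), a 5.07-fold decrease. It was 1 of 2 of the 14 glycogen genes that fell (14.3%, against 4.0% of all genes, median -0.11). The other, the kinase subunit Phka1, was called in 1 of the 8 fits with 1 array left out. Of 31 glycolysis and lactate genes, 1 fell and 0 rose (median -0.04), a share of 3.2% that is near the 4.0% of all genes. That gene was Eno3, the muscle enolase. It read 9.88 and 9.95 against 8.52 and 8.71, and 10.63 and 10.49 against 9.67 and 9.87. The knockdown arrays lay below every control array, narrowly so for knockdown at 10 mM against control at 1 mM, and Eno3 changed by -1.04 ± 0.13 (adjusted p = 0.00509). Hk2, the muscle hexokinase, changed by -0.11 ± 0.09 (adjusted p = 0.589). Pfkm, the muscle phosphofructokinase, changed by -0.85 ± 0.21 (adjusted p = 0.0683), and Gapdh by -0.01 ± 0.09, both named after their values were seen. Pfkm fell at 1 mM by itself (-1.31, adjusted p = 0.0302) and did not pass at 10 mM (-0.38, adjusted p = 0.483). Slc2a4, the insulin-responsive transporter GLUT4, was dim and changed by -0.91 ± 0.38 (adjusted p = 0.242).

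Cd36, a fatty acid transporter, had the largest average decrease of the genes named by size. It read 5.74 and 5.55 against 2.65 and 3.21 at 1 mM, and 6.95 and 7.30 against 4.40 and 4.84 at 10 mM. All knockdown arrays were below all control arrays, dim at 1 mM, and Cd36 changed by -2.61 ± 0.16 (adjusted p = 0.000371), a 6.10-fold decrease. Of the 25 fatty acid genes 2 fell (8.0%, against 4.0% of all genes), 0 rose, and the median was -0.03. The other was Acsl6, an acyl-CoA synthetase, called in 1 of the 8 fits with 1 array left out. Of 31 mitochondrial genes 3 fell and 0 rose (9.7%, median -0.10). Those that fell included Cox6a2, the muscle form of a cytochrome oxidase subunit (-0.68 ± 0.08, adjusted p = 0.00473). The other members, Coq8a and Cox8b, were called in 6 and 2 of those 8 fits.

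Other genes with large decreases encode cytoskeletal and secreted proteins. Pgm5, a phosphoglucomutase-like protein of muscle adhesion sites, read 7.56 and 7.99 against 5.37 and 4.62, and 8.51 and 8.48 against 6.40 and 6.47. Ablim3, an actin-binding LIM protein, read 6.20 and 6.32 against 3.56 and 2.91, and 7.79 and 7.77 against 5.65 and 6.28. Both genes changed by -2.42, with an SE of 0.21 for Pgm5 and 0.27 for Ablim3. Their groups were apart within each level, which the rule for naming them required. Ctrb1, a chymotrypsinogen (-2.10 ± 0.20), and Afap1l1, an actin filament-associated protein (-2.04 ± 0.22), also fell, the former dim in knockdown cells at 10 mM and the latter at 1 mM. The array also carries precursors of muscle microRNAs, which were picked out after their values were seen. Mir133b changed by -1.23 ± 0.18 (adjusted p = 0.00987) and the host transcript Mir1a-1hg by -1.22 ± 0.22 (adjusted p = 0.0220). The host transcript was at dim levels, and Mir133b was dim in knockdown cells at 1 mM (3.11 and 2.80). These probe sets are annotated to the precursor genes and do not read the mature forms.

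**Figure D4:**
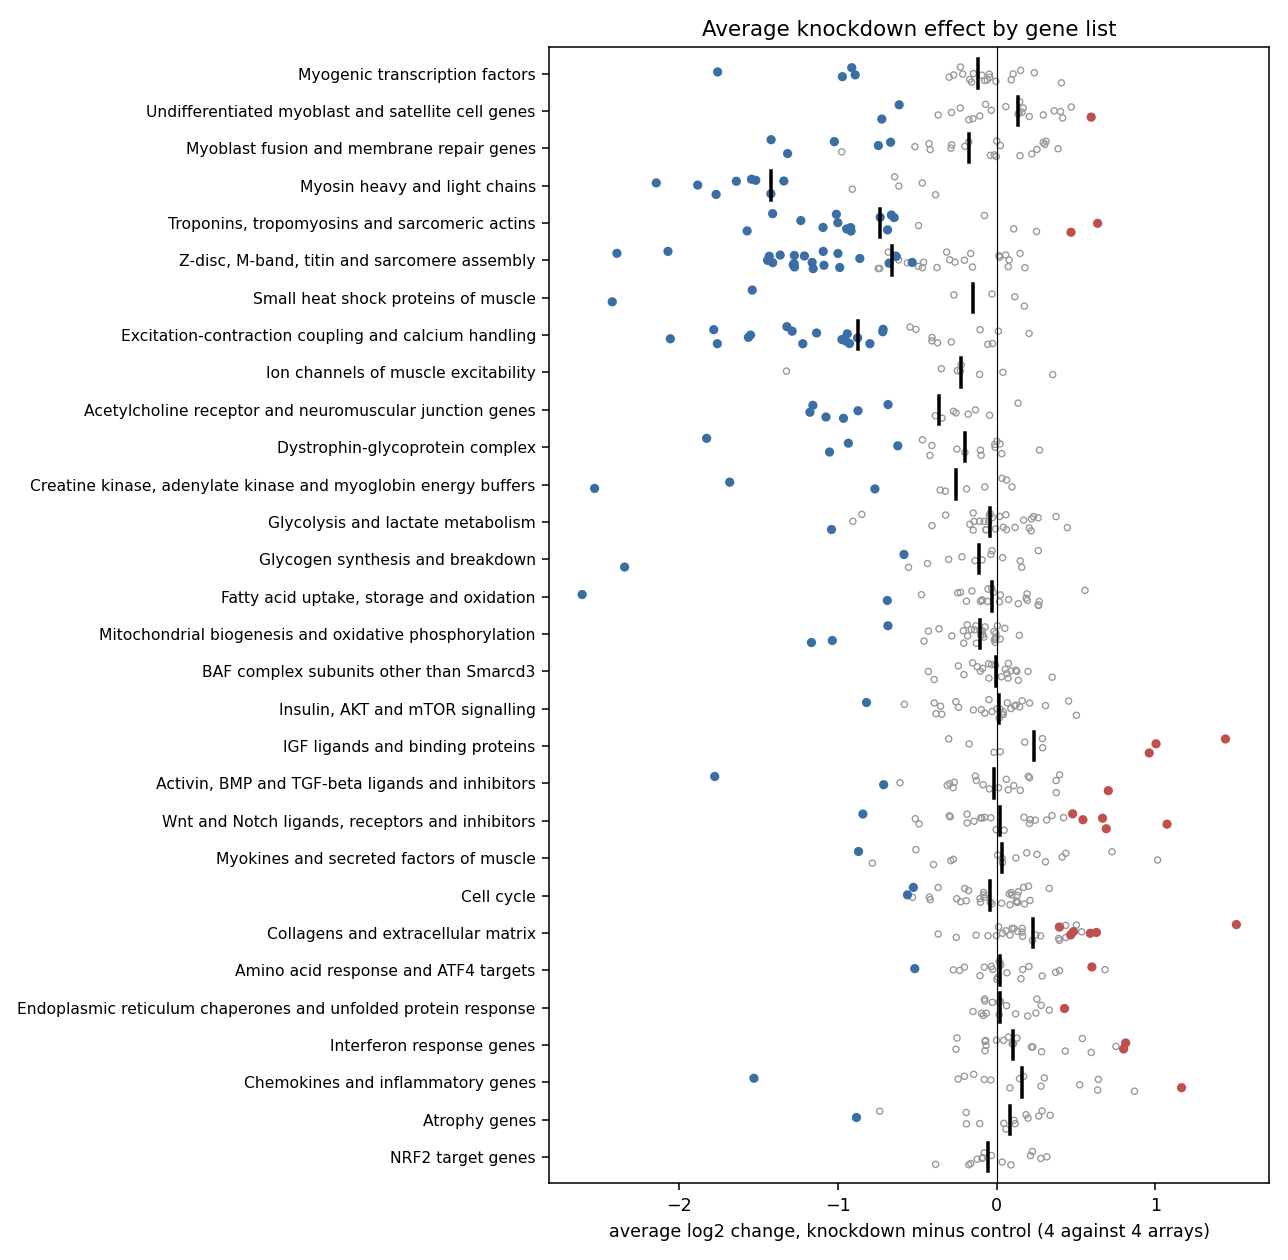
Average log2 change (horizontal, knockdown minus control, 4 against 4 arrays) of each tested member of 30 gene lists, with genes that fell in blue, genes that rose in red, other genes as open circles and the list median as a bar. The myosin, troponin, Z-disc and excitation-contraction lists have medians between -1.42 and -0.66, and most other lists have medians within 0.25 of 0.

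The other subunits of the BAF complex did not pass. Of 23 other BAF complex genes tested, 0 rose and 0 fell by limma, also with the trend and robust options (3 at an unadjusted p under 0.05, median -0.01). Among all genes 4.0% were called and 18.9% had an unadjusted p under 0.05 by limma. At such shares a list of this length can hold 0 calls, so the count says little about the complex. The paralogs Smarcd1 and Smarcd2, which encode the alternative subunits BAF60a and BAF60b, changed by 0.20 ± 0.18 (adjusted p = 0.60) and 0.05 ± 0.11 (adjusted p = 0.849). A second Smarcd1 probe set gave -0.15 ± 0.24, and the sign of Smarcd2 turned without replicate 1 of the control at 10 mM. The smallest p in the list belonged to Bcl7c, an accessory subunit (-0.43 ± 0.12, adjusted p = 0.0894).

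Deptor, an inhibitor of mTOR kinase, has been linked to BAF60c in muscle. It read 8.33 and 8.69 in control cells against 7.55 and 7.83 in knockdown cells at 1 mM, and 9.23 and 9.37 against 8.91 and 9.0 at 10 mM. Knockdown arrays were lower within each level, with a narrower gap at 10 mM. Deptor changed by -0.58 ± 0.14 and did not pass (adjusted p = 0.0631), while its second probe set changed by -0.66 ± 0.14 and passed (adjusted p = 0.0405). Of 29 insulin, AKT and mTOR genes, 1 fell and 0 rose (median 0.02), a share of 3.4% that is near the 4.0% of all genes. This gene, Pik3cb, a catalytic subunit of PI3-kinase, was called in 1 of the 8 fits with 1 array left out. Txnip, a glucose-induced arrestin, changed by 0.24 ± 0.20 (adjusted p = 0.572).

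The genes that rose were fewer and changed less, and several encode smooth muscle, matrix and growth factor binding proteins. Cnn1, calponin of smooth muscle, read 4.55 and 4.07 in control cells against 5.52 and 6.03 in knockdown cells at 1 mM, and 4.60 and 4.02 against 6.49 and 6.69 at 10 mM. Control cells were low at both levels and knockdown cells high, and Cnn1 changed by 1.87 ± 0.23 (adjusted p = 0.00450), a 3.65-fold increase and the largest of the genes named by size. Postn, periostin of the extracellular matrix, read 8.74 and 8.10 against 9.64 and 10.12, and 9.81 and 9.63 against 11.08 and 11.48. It was higher with knockdown and with glucose, and changed by 1.51 ± 0.18 (adjusted p = 0.00401). Of 31 collagen and matrix genes, 6 rose and 0 fell (19.4%, against 4.0% of all genes, median 0.23). Postn alone passed without replicate 2 of the control at 1 mM, and 2 to 4 members passed without any other single array.

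Insulin-like growth factor binding proteins, which carry IGFs outside the cell, were among the genes that rose. Of 10 genes of the IGF list 3 rose and 0 fell (median 0.23), while 4.0% of all genes were called and 1.45% rose. In each of the 8 fits with 1 array left out, 3 members of this list rose. Igfbp2 read 5.23 and 4.74 against 6.43 and 6.31 at 1 mM, and 5.22 and 5.51 against 6.78 and 6.95 at 10 mM. All knockdown arrays were above all control arrays, and Igfbp2 changed by 1.44 ± 0.13 (adjusted p = 0.00182). Igfbp4 read 7.18 and 6.72 against 7.77 and 7.80, and 6.79 and 7.08 against 8.06 and 8.17. It too had no overlap, and changed by 1.00 ± 0.14 (adjusted p = 0.00792). Igfbp3 was lower at 10 mM glucose in both backgrounds and changed by 0.96 ± 0.15 (adjusted p = 0.0111). Pappa, a protease that cleaves IGF binding proteins, was picked out after its value was seen and rose by 1.15 ± 0.15 (adjusted p = 0.00746).

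**Figure D5:**
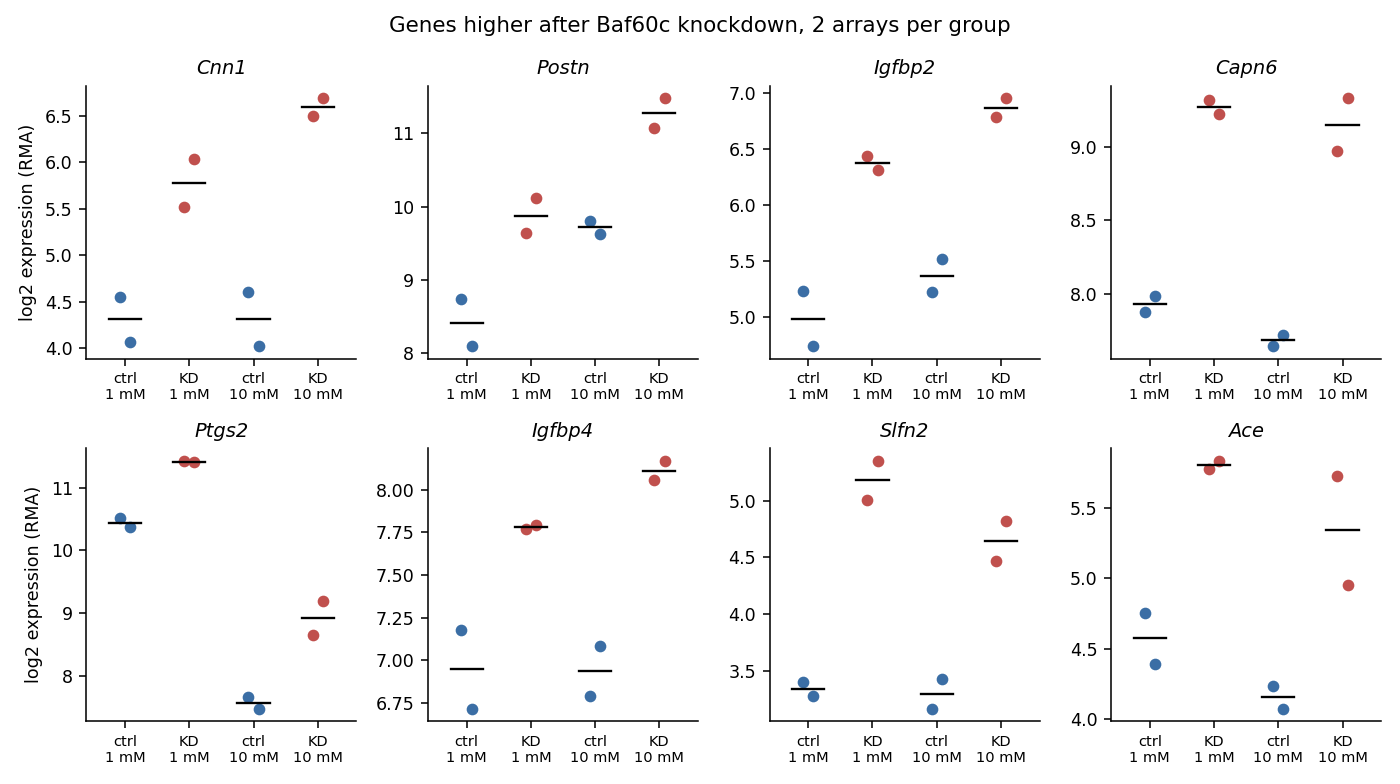
Log2 expression of 8 genes that rose, on the 8 arrays, with control cells (ctrl) in blue, knockdown cells (KD) in red and the mean of the 2 replicates as a bar. In each panel both knockdown arrays lie above both control arrays of the same glucose level, which was a condition for naming most of these genes. Each panel has its own vertical axis, which does not start at 0.

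Ptgs2, the inducible cyclooxygenase, read 10.52 and 10.37 in control cells against 11.43 and 11.40 in knockdown cells at 1 mM, and 7.66 and 7.48 against 8.66 and 9.2 at 10 mM. The gap between glucose levels was numerically wider than that between control and knockdown, and knockdown cells were higher within each level, by 1.16 ± 0.15 on average (adjusted p = 0.00507). Il33, an alarmin cytokine, went the other way. It read 4.11 and 4.30 against 3.12 and 2.32, and 6.75 and 6.80 against 5.17 and 5.23. Il33 was lower in knockdown cells at both levels and dim in knockdown cells at 1 mM, with a change of -1.53 ± 0.16 (adjusted p = 0.00292). These were the 2 called genes among 16 chemokine and inflammatory genes (12.5%, against 4.0% of all genes, median 0.16). Of 21 interferon response genes, 2 rose and 0 fell (9.5%, median 0.11), namely Oasl2 (0.80 ± 0.13) and Bst2 (0.81 ± 0.16). In this list 0 passed without replicate 2 of the control at 1 mM or replicate 1 of the knockdown at 10 mM.

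Capn6, a calpain family member without protease activity, read 7.88 and 7.99 against 9.32 and 9.23 at 1 mM, and 7.64 and 7.72 against 8.97 and 9.33 at 10 mM. Every knockdown array was above every control array, and the change was 1.41 ± 0.11 (adjusted p = 0.000867). Slfn2, a Schlafen family member, read 3.40 and 3.28 against 5.01 and 5.35, and 3.16 and 3.43 against 4.47 and 4.82. It was low in control cells at both levels and rose by 1.59 ± 0.15 (adjusted p = 0.00213). Ctla2a, a cysteine protease inhibitor (1.23 ± 0.14), and Ace, the angiotensin-converting enzyme (1.21 ± 0.17), rose in all 8 fits with 1 array left out. Cdh10, a cadherin, rose by 1.55 ± 0.25 (adjusted p = 0.0148), was dim in control cells at 1 mM, and lost its call without replicate 1 of the knockdown at 10 mM (adjusted p = 0.0532).

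Among activin, BMP and TGF-beta ligands and inhibitors, genes passed in both directions. Fst encodes follistatin, which binds and blocks activins and myostatin. It read 5.21 and 5.03 in control cells against 3.97 and 3.67 in knockdown cells at 1 mM, and 7.25 and 7.23 against 5.05 and 4.93 at 10 mM. Knockdown cells at 10 mM lay at the level of control cells at 1 mM, and within each level the groups were apart. Fst changed by -1.78 ± 0.19 (adjusted p = 0.00292), with -1.30 at 1 mM and -2.25 at 10 mM, and the difference of -0.95 did not pass (adjusted p = 0.417). Inhba, the activin A subunit, read 5.78 and 5.53 against 6.23 and 6.16, and 6.36 and 6.24 against 7.15 and 7.19. It was higher in knockdown cells within each level and changed by 0.70 ± 0.11 (adjusted p = 0.0123). Of the 22 genes of this list 1 rose and 2 fell (13.6%, against 4.0% of all genes). The list median was -0.02, with 11 changes below 0 and 11 above. The other gene that fell was the ligand Tgfb3 (-0.71 ± 0.13), called in 2 of the 8 fits with 1 array left out.

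The Notch ligands split. Jag2 read 4.70 and 4.73 against 4.06 and 4.02, and 5.44 and 5.65 against 4.43 and 4.64, and changed by -0.84 ± 0.11 (adjusted p = 0.00646). Jag1 read 8.52 and 8.38 against 9.14 and 8.93, and 6.03 and 5.81 against 6.59 and 6.84, and changed by 0.69 ± 0.11 (adjusted p = 0.0148). Both were separated within each level, in opposite directions, although the call of Jag1 was lost without replicate 2 of the control at 1 mM (adjusted p = 0.0508). Of 26 Wnt and Notch genes 5 rose and 1 fell (23.1%, against 4.0% of all genes, median 0.02). The 5 rises were not firm, since 0 remained without replicate 2 of the control at 1 mM and 2 to 3 without any other single array.

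In the cellular stress lists single genes passed. Of 22 amino acid response genes 1 rose and 1 fell (9.1%, median 0.02), and the fall of Slc7a11, the cystine transporter (-0.52 ± 0.11), was lost in all 8 fits with 1 array left out. Cth, cystathionine gamma-lyase, read 8.42 and 8.44 against 8.89 and 8.94 at 1 mM, and 3.79 and 3.89 against 4.56 and 4.55 at 10 mM. It was far lower at 10 mM glucose in both backgrounds, and knockdown cells were higher within each level, by 0.60 ± 0.09 on average (adjusted p = 0.0111). Of 18 unfolded protein response genes 1 rose and 0 fell (5.6%, median 0.02), namely Edem1, whose call was lost in all 8 fits with 1 array left out. Of 14 NRF2 targets 0 passed by limma (median -0.05), and 2 had an unadjusted p under 0.05, against 18.9% of all genes. Of 14 atrophy genes 1 (7.1%) fell, the muscle ubiquitin ligase adaptor Fbxo40 (-0.88 ± 0.13, adjusted p = 0.0115). For all these lists the share of all genes called was 4.0%.

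Several genes passed only through the average. The 5 genes with the smallest p that fell on average without passing at either level were Shroom3 (-0.90 ± 0.11), Spryd4 (-0.80 ± 0.11), Klf5 (-0.78 ± 0.10), Nedd8 (-0.76 ± 0.10) and Hexa (-0.71 ± 0.10). The 5 that rose in this way were Whrn (0.81 ± 0.11), Ace (1.21 ± 0.17), Sulf2 (0.83 ± 0.12), Erv3 (0.79 ± 0.11) and Stmn2 (0.75 ± 0.11). Klf5 is a Krüppel-like transcription factor, Nedd8 a ubiquitin-like modifier, Hexa a lysosomal hexosaminidase and Sulf2 a sulfatase of heparan sulfate. The changes at 1 mM and 10 mM were -0.79 and -0.76 for Klf5, -0.69 and -0.84 for Nedd8, and 0.69 and 0.90 for Erv3. All 10 passed in each of the 8 fits with 1 array left out, and Erv3 was dim.

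The labelled cell type was checked against its markers, and markers of other cells were counted beside it. Of 10 myotube markers, 8 fell and 0 rose (80.0%, against 4.0% of all genes, median -1.0). Their summed linear signal was 9721 to 14875 in control and 4921 to 9306 in knockdown arrays, so myotube genes were present in all. Of 23 undifferentiated myoblast genes the sum was 4626 to 4984 in control and 4515 to 4738 in knockdown arrays. Of 12 fibroblast and smooth muscle markers 4 rose and 1 fell (41.7%, median 0.13). Their sum was 5198 to 10736 in control and 5802 to 10423 in knockdown arrays. Of those that rose, Cnn1 passed in all 8 fits with 1 array left out, Tagln in 4 and Myl9 in 2, and the fall of Dpt was lost in all 8. Adipocyte, osteoblast, macrophage and endothelial markers (7, 4, 4 and 3 tested) gave 0 calls by limma, with 2, 0, 0 and 0 at an unadjusted p under 0.05. Among all genes 4.0% were called and 18.9% had an unadjusted p under 0.05, so lists this short can hold 0 calls. Their sums were 372 to 464, 396 to 454, 52.4 to 75.6 and 16.8 to 28.2 in control and 394 to 446, 369 to 446, 60.1 to 83.9 and 13.4 to 32.1 in knockdown arrays. Of 5 neuronal and glial markers, with sums of 95.6 to 239 and 102 to 229, 1 fell, the dim S100b, which lost its call in all 8 fits with 1 array left out. Whether the makeup of the cultures differed was not tested, and in bulk RNA fewer differentiated cells and less RNA per cell cannot be told apart.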

How the data were processed

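Total RNA of 8 C2C12 cultures, 2 per group, was hybridized to Affymetrix Mouse Gene ST arrays. The authors deposited 1 log2 value per probe set and array, made with RMA (affy), per the submitters' processing notes. Their versions and the genome build are not given in the sources used here. No further normalization was applied, and no depth applies to arrays, whose number limits the precision.

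Of 41345 probe sets, 23521 had 1 gene in the platform annotation, 1814 several and 16010 none. Of the 23521, 23328 gene IDs matched GRCm38.p6, and 0 symbols changed. Of 22180 genes, 1082 had more than 1 probe set, and the one with the highest mean was used. Genes with a mean below the 40th percentile (2.30) were left out, which left 13308.

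The average effect was fitted with limma 3.58.1 in R 4.3.3 (lmFit, eBayes) on knockdown and glucose, with 5 residual and 3.45 prior degrees of freedom. Effects at each level and their difference came from a fit with 1 mean per group. Tests were two-sided and adjusted by Benjamini-Hochberg over all genes. The code was tested on simulated data. The comparison and gene lists were chosen with earlier results of these data known. Genes were named by a rule: 11 fixed genes, of which 1 is not reported here, the 12 largest changes per direction without overlap (predicted genes, small RNAs and receptors of smell and taste left out), up to 4 called members per list or, with none called, 2 by smallest p, up to 3 per direction where a list moved both ways, and 5 per direction called only on average. The text describes those that help most.

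Same-numbered replicates correlated at -0.04 to 0.11 in their deviations, which gave no sign that the numbers paired samples. With 2 replicates per group such low values cannot exclude pairing. Alternatives were the filter, centring, quantile normalization, the mean of probe sets, trend and robust options, 1 mean per group, array weights, no glucose covariate, a replicate block and leaving out each array.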

Additional observations from a re-analysis of the deposited data

How the results depend on the processing

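With no filter 128 genes rose, and with a 60th percentile filter 302, against 193. With the trend and robust options of limma 968 genes changed, 403 higher and 565 lower, and the difference between glucose levels passed in 1, Thbs1 (1.07 ± 0.13, adjusted p = 0.0104). Without the glucose covariate 10 passed, 3 higher and 7 lower, and the target probe set missed the threshold (-2.30, adjusted p = 0.0966). Leaving out 1 array gave 250 to 345 genes, 65 to 126 higher and 182 to 232 lower, a target change of -2.48 to -2.19, and 0 genes for the difference between levels. With the replicate number as a block 392 genes passed, 381 of them among the 532, and 13 of the 104 named genes that were called lost their call. Centring, quantile normalization, the mean of probe sets, 1 mean per group and array weights gave 498 to 573 genes, more of them lower than higher in each. The split was less uneven than the main 339 lower and 193 higher with centring (305 lower and 227 higher) and with quantile normalization (326 and 224).

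The sign turned for Tpm3 with the mean of its probe sets (-0.073). With 1 array left out, Six4 ran from -0.17 to 0.066 (above 0 without replicate 1 of the control or replicate 2 of the knockdown at 1 mM), Col2a1 from -0.035 to 0.23 (below 0 without the latter) and Smarcd2 from -0.017 to 0.14 (below 0 without replicate 1 of the control at 10 mM). Of these 4 genes Tpm3 was called. The cause was not tested. With 4 arrays a side, average changes well under the median reach of 0.293 could not be resolved.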
